A study of Arabidopsis thaliana with 18 samples.

Results

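The 8 genes described here are STZ, CML41, AT4G27280, AT4G27652, AT4G27654, AT4G27657, AT5G52750 and AT3G10930, a set named for rapid responses to stress and calcium. Each was read from its probe set, listed with exactly 1 gene, among 13513 such probe sets and 22746 probe sets in all besides controls. The members were chosen by their measured signals, for being higher in LBD37 or LBD38 mutants or overexpressers. Each line's difference from its wild type is therefore given below as a description, with no test. Transcripts came from whole Arabidopsis thaliana Col-0 seedlings, 9 days old, and were read on 18 ATH1 arrays of Affymetrix, 3 biological replicates for each of 6 groups.

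Overexpressers of LBD37 and of LBD38 and depleted wild type grew for 7 days on 4 mM KNO3 and for the last 2 days with no nitrogen added. The lbd37 and lbd38 T-DNA mutants and replete wild type had 4 mM KNO3 for all 9 days. Overexpressers were measured only without nitrogen and mutants only with it, so line type and nitrogen supply cannot be told apart between them. The promoter that drives overexpression, the number of transgenic lines and what was repeated between biological replicates are not given in the sources used here, so p-values measure the spread between these samples, which may be technical. No probe set was listed by name with LBD37 or LBD38, so the transcripts targeted in each line were not analysed here. The median log2 signal of an array was 6.87 to 7.06, and the correlation of 2 replicates over all probe sets was 0.988 to 0.998. Replicate 3 of the LBD37 overexpresser stood apart: the middle part of its signals was narrower (interquartile range 2.89) than on any of the other 17 (3.06 to 3.28).

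LBD37 and LBD38 are LOB-domain transcription factors known as repressors of anthocyanin synthesis and of nitrogen-responsive genes. In plants, touch, wounding, cold and microbial elicitors raise cytosolic calcium within moments. Calmodulin-like proteins bind calcium through EF hands and pass the signal on, and a set of early genes, many of them encoding zinc finger, WRKY and ERF transcription factors, is transcribed soon after. STZ, also called ZAT10 or salt tolerance zinc finger, is a C2H2 zinc finger transcription factor of this early set. CML41, a calmodulin-like gene, is known for its part in closing plasmodesmata during immune responses. The other 6 members have no gene symbol besides their locus in the annotation used and are given by locus. Their products were not looked up here.

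In the TAIR10.1 annotation STZ lies on chromosome 1, CML41 and AT3G10930 on chromosome 3 and AT5G52750 on chromosome 5. AT4G27280 and a run of 3 adjacent genes, AT4G27652, AT4G27654 and AT4G27657, lie on chromosome 4. Values are the deposited log2 signals, on which a difference of 1 is 2-fold, and each group is given as its 3 replicates in order. Signals of different probe sets were not compared with each other.

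**Figure D1:**
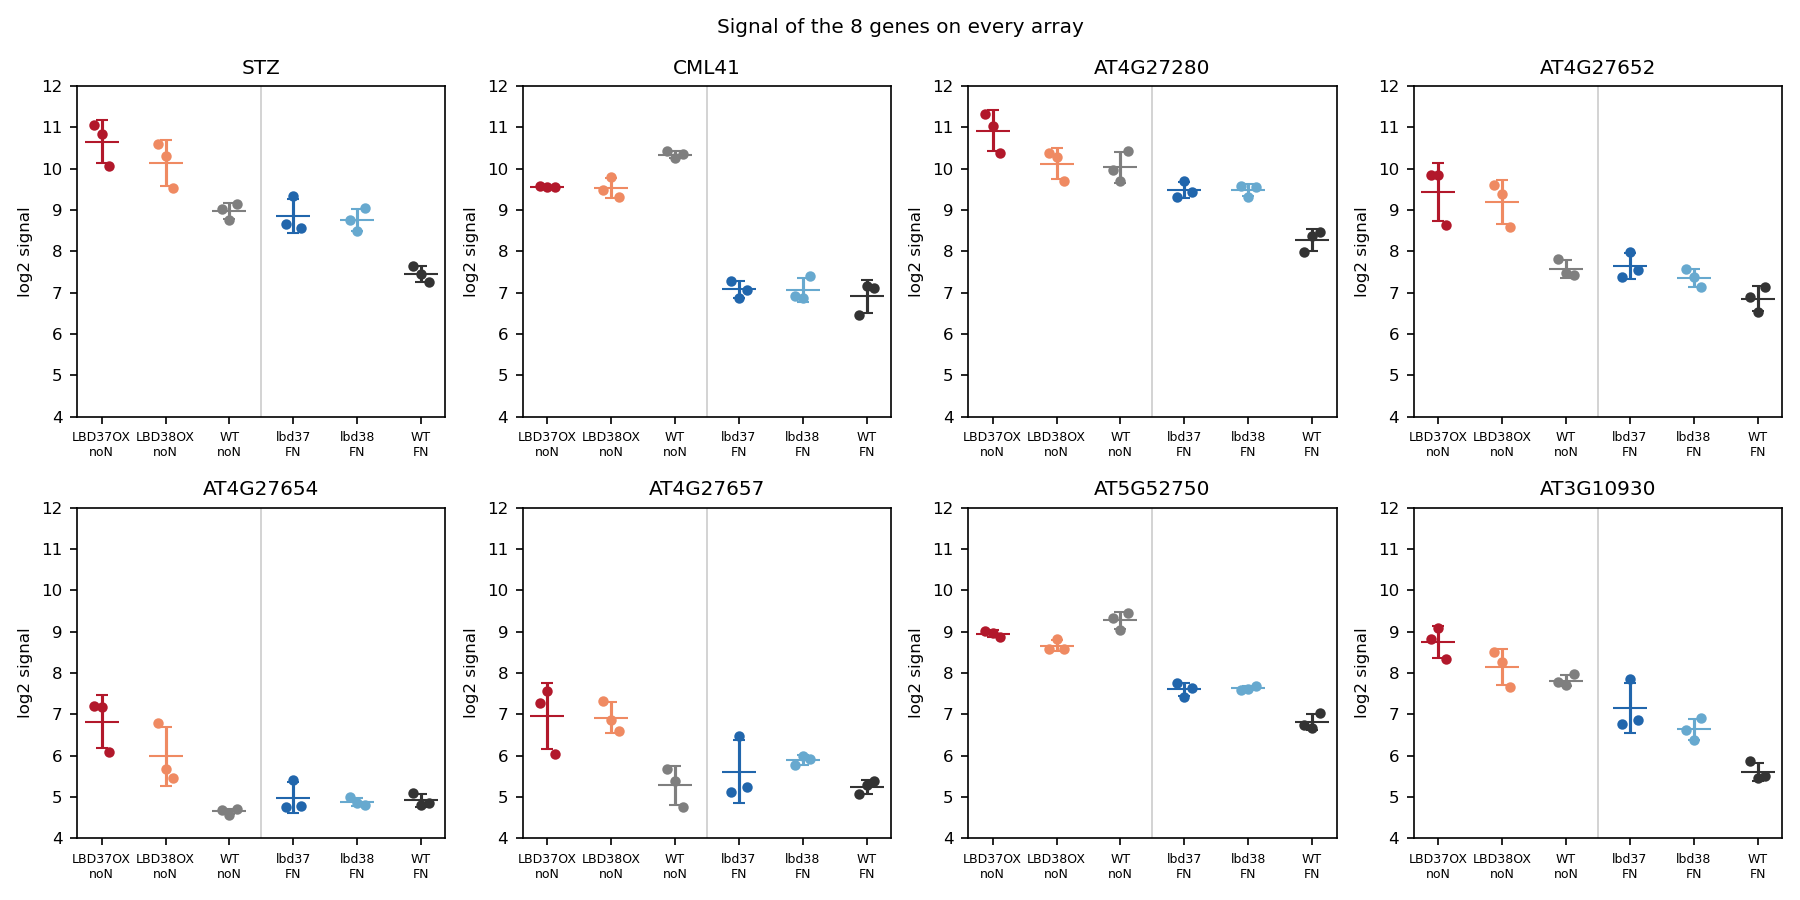
Log2 signal (vertical axis) of the 8 genes on each of the 18 arrays, in 6 groups along the horizontal axis. Points are arrays, horizontal lines are group means and bars are the SD of 3 arrays. STZ and the 3 chromosome 4 genes stand highest in the overexpressers, and CML41 and AT5G52750 highest in depleted wild type.

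STZ was higher in every line than in its wild type. It read 11.05, 10.83 and 10.06 in the LBD37 overexpresser and 10.61, 10.31 and 9.53 in the LBD38 overexpresser, against 9.02, 8.76 and 9.15 in depleted wild type. In mutants it read 8.65, 9.34 and 8.57 for lbd37 and 8.76, 8.49 and 9.04 for lbd38, against 7.65, 7.46 and 7.26 in replete wild type. No array of any of the 4 lines overlapped its wild type. The fitted log2 differences from wild type were 1.68 in the LBD37 overexpresser, 1.17 in the LBD38 overexpresser, 1.40 in lbd37 and 1.30 in lbd38, each with an SE of 0.27. In the order of group means, both overexpressers came first with overlapping arrays. Depleted wild type, lbd37 and lbd38 followed, again with overlapping arrays, and replete wild type lay below all of them.

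CML41 had another pattern, and its overexpresser arrays went against the naming of the set. Its signal was 9.58, 9.57 and 9.55 in the LBD37 overexpresser and 9.49, 9.81 and 9.31 in the LBD38 overexpresser, against 10.43, 10.26 and 10.35 in depleted wild type. Both overexpressers thus lay below wild type with no overlap, by 0.78 and 0.81 on the log2 scale (SE 0.17). In lbd37 it was 7.30, 6.87 and 7.07 and in lbd38 6.91, 6.87 and 7.40, against 6.45, 7.17 and 7.11 in replete wild type. The mutant arrays overlapped those of wild type. CML41 is therefore a member whose signal was not higher in either overexpresser and overlapped that of wild type in both mutants.

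AT4G27652, AT4G27654 and AT4G27657 follow each other on chromosome 4 with no gene listed between them, and all were higher in both overexpressers. AT4G27652 read 9.84, 9.85 and 8.63 in the LBD37 overexpresser and 9.60, 9.39 and 8.58 in the LBD38 overexpresser, against 7.83, 7.48 and 7.43 in depleted wild type. AT4G27654 read 7.20, 7.18 and 6.08 in the LBD37 overexpresser and 6.80, 5.68 and 5.47 in the LBD38 overexpresser, against 4.67, 4.57 and 4.70 in depleted wild type. AT4G27657 read 7.27, 7.55 and 6.05 in the LBD37 overexpresser and 7.31, 6.85 and 6.58 in the LBD38 overexpresser, against 5.68, 5.39 and 4.76 in depleted wild type. Every overexpresser array of the 3 genes lay above every depleted wild-type array. The differences from wild type were 1.86 and 1.61 for AT4G27652 (SE 0.29), 2.17 and 1.33 for AT4G27654 (SE 0.29), and 1.68 and 1.64 for AT4G27657 (SE 0.35), with the LBD37 overexpresser given before the LBD38 overexpresser.

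In the mutants the 3 adjacent genes lay closer to wild type. AT4G27652 read 7.37, 7.99 and 7.56 in lbd37 and 7.56, 7.38 and 7.13 in lbd38, against 6.89, 6.54 and 7.15 in replete wild type. The lbd37 arrays stood above wild type and those of lbd38 overlapped it, with differences of 0.78 and 0.50. AT4G27654 read 4.75, 5.41 and 4.79 in lbd37 and 4.99, 4.84 and 4.81 in lbd38, against 5.09, 4.80 and 4.86 in replete wild type, so the groups overlapped. AT4G27657 read 5.11, 6.48 and 5.23 in lbd37 and 5.77, 6.0004 and 5.92 in lbd38, against 5.06, 5.28 and 5.38 in replete wild type. The lbd38 arrays of AT4G27657 lay above wild type by 0.65 without overlap, and replicate 2 of lbd37 read over 1 log2 unit above the other lbd37 arrays. The wild-type signals of AT4G27654 lay below the lower quartile of the arrays (5.19 to 5.34) and those of AT4G27657 around it. The fold differences of these genes rest on such dim wild-type signals.

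AT4G27280 and AT3G10930 were higher in both mutants. In the overexpressers their estimates were larger for LBD37. The direct comparison of the overexpressers, given below, did not pass for either gene (limma adjusted p = 0.271 and 0.321). AT4G27280 read 11.33, 11.04 and 10.37 in the LBD37 overexpresser and 10.38, 10.29 and 9.70 in the LBD38 overexpresser, against 9.96, 9.70 and 10.44 in depleted wild type. Both overexpressers overlapped wild type, with differences of 0.88 and 0.09 (SE 0.23). In lbd37 it was 9.33, 9.69 and 9.44 and in lbd38 9.58, 9.33 and 9.55, against 7.98, 8.37 and 8.47 in replete wild type. Both mutants stood clear of wild type by 1.21.

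For AT3G10930 the signal was 8.82, 9.09 and 8.33 in the LBD37 overexpresser and 8.50, 8.25 and 7.65 in the LBD38 overexpresser, against 7.77, 7.71 and 7.96 in depleted wild type. The LBD37 overexpresser was clear of wild type by 0.93 and the LBD38 overexpresser overlapped it, with a difference of 0.32 (SE 0.26). In the mutants it was 6.76, 7.86 and 6.87 for lbd37 and 6.61, 6.38 and 6.90 for lbd38, against 5.86, 5.47 and 5.50 in replete wild type. Both mutants stood clear of wild type, by 1.55 in lbd37 and 1.02 in lbd38.

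AT5G52750 joined CML41 in being lower in the overexpressers, while it was higher in the mutants. Its signal was 9.02, 8.96 and 8.86 in the LBD37 overexpresser and 8.58, 8.82 and 8.58 in the LBD38 overexpresser, against 9.33, 9.04 and 9.45 in depleted wild type. In lbd37 it was 7.75, 7.42 and 7.63 and in lbd38 7.59, 7.60 and 7.69, against 6.75, 6.66 and 7.04 in replete wild type. None of these groups overlapped its wild type. The differences were -0.33 in the LBD37 overexpresser, -0.61 in the LBD38 overexpresser, 0.79 in lbd37 and 0.81 in lbd38 (SE 0.12).

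**Figure D2:**
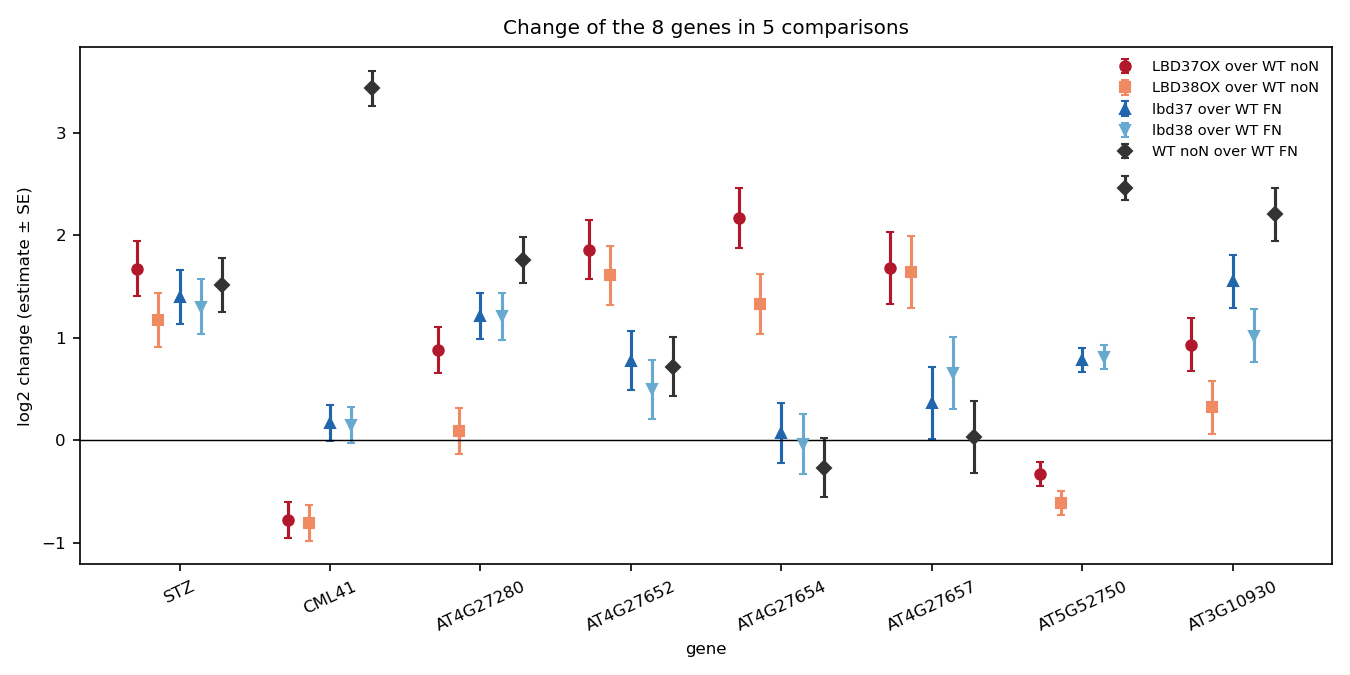
Log2 change (vertical axis, estimate with its SE) of each of the 8 genes (horizontal axis) in 5 comparisons, several of which share wild-type arrays. The 3 adjacent chromosome 4 genes have their largest differences in the overexpressers, and CML41 and AT5G52750 combine positive changes in depleted over replete wild type with negative ones in both overexpressers.

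Counted over the 8 members, the LBD37 overexpresser had 5 genes with every array above depleted wild type, as did 15.1% of all probe sets, and 2 with every array below, as did 16.3%. The LBD38 overexpresser had 4 above (20.0% of all probe sets) and 2 below (15.6%). All lbd37 arrays were above wild type for 5 members (5.64% of all probe sets), and all lbd38 arrays for 5 members (6.32%). No member lay below in lbd37 (8.31% of all probe sets) or in lbd38 (12.2%). Median differences of the members were 1.30, 0.75, 0.78 and 0.73 in the LBD37 overexpresser, the LBD38 overexpresser, lbd37 and lbd38, beside 0.01, 0.01, -0.02 and -0.04 over all probe sets. Without the dim AT4G27654 and AT4G27657 the medians of the other 6 were 0.91, 0.21, 1.00 and 0.92. In the LBD38 overexpresser the members were split. STZ, AT4G27652, AT4G27654 and AT4G27657 differed by 1.17 to 1.64 and the others by -0.81 to 0.32. Its median therefore depends on how many of the higher genes are counted, and the part of dimness was not tested. The rule chose the members on these differences, so the counts say nothing further about them. Without replicate 3 of the LBD37 overexpresser, 6 members lay above wild type (25.5% of all probe sets) and 2 below (18.7%), and the median was 1.56. Both overexpresser comparisons use the same depleted wild-type arrays, and both mutant comparisons the same replete ones. Depleted wild type also enters the depletion comparison, with the opposite sign. Replete wild type enters it with the same sign as in the mutant comparisons.

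Depletion itself was tested, as depleted over replete wild type, by limma on all 18 arrays with Benjamini-Hochberg adjustment over 22746 probe sets and a threshold of 0.05. These wild-type arrays are also those against which the lines were set when the members were chosen. Low replete wild-type values would raise both the mutant differences and the depletion rises, so the depletion tests are not independent of that choice. Of the 8 members 6 rose under depletion and none fell, where 23.5% of all probe sets rose and 26.6% fell. Of the same 8, 6 passed at an unadjusted p under 0.05 (55.8% of all probe sets did). The median member change was 1.64, beside -0.07 over all probe sets. In whole seedlings, more cells of a type and more RNA per cell cannot be told apart.

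The calcium sensor gene CML41 rose most. Its arrays of depleted wild type lay between 10.26 and 10.43, against 6.45 to 7.17 in replete wild type, which is 10.8-fold higher (log2 change 3.43 ± 0.17 SE, limma adjusted p = 4.85e-11, higher in 3 of 3 arrays). AT5G52750 rose 5.50-fold (2.46 ± 0.12, limma adjusted p = 2.54e-11) and AT3G10930 rose 4.61-fold (2.20 ± 0.26, limma adjusted p = 8.97e-07). AT4G27280 rose 3.38-fold (1.76 ± 0.23, limma adjusted p = 3.08e-06), and STZ rose 2.86-fold (1.52 ± 0.27, limma adjusted p = 0.000105). For these 5 genes and AT4G27652 every depleted wild-type array was above every replete one, as for 25.8% of all probe sets.

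The adjacent chromosome 4 genes moved little or not detectably under depletion. AT4G27652 rose 1.65-fold (0.72 ± 0.29, limma adjusted p = 0.0453). That call was lost when replicate 1, 2 or 3 of depleted wild type or replicate 1 or 2 of replete wild type was left out (adjusted p between 0.0561 and 0.169), and held without replicate 3 of replete wild type. AT4G27654 differed by -0.27 (95% interval -0.88 to 0.35, limma adjusted p = 0.468), although its depleted arrays lay just below the replete ones, as for 32.5% of all probe sets. It passed as lower when only the arrays of depleted and replete wild type were fitted (adjusted p = 0.0406). AT4G27657 differed by 0.04 (95% interval -0.70 to 0.77, limma adjusted p = 0.939) with overlapping arrays.

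The same 6 groups can be read as an order for each gene. For AT4G27652, AT4G27654 and AT4G27657 both overexpressers, overlapping each other, stood clear of the group with the next mean, which was lbd37, lbd37 and lbd38 in turn. For AT4G27657, though, replicate 2 of lbd37 (6.48) lay above replicate 3 of the LBD37 overexpresser (6.05). For CML41 depleted wild type came first, both overexpressers next with overlapping arrays, and then, 2.46 lower than the LBD38 overexpresser, the 3 replete groups, which overlapped. AT5G52750 had depleted wild type first, the LBD37 overexpresser and the LBD38 overexpresser next with no overlap between any of them, then lbd38 and lbd37 overlapping, and replete wild type last. AT4G27280 and AT3G10930 were highest in the LBD37 overexpresser, then in the LBD38 overexpresser and then in depleted wild type, with each overlapping the next. The overlapping mutants followed, depleted wild type standing clear of lbd37 for AT4G27280 but not for AT3G10930, and replete wild type lay clear of lbd38 at the bottom. Replete wild type had the lowest mean for every member but AT4G27654, for which depleted wild type was lowest.

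Direct comparisons of the lines asked whether the members differed between LBD37 and LBD38, and these share line arrays with the differences that chose the members. Between the overexpressers, 0 of 8 members passed in limma after adjustment (0.0484% of all probe sets did) and 4 had an unadjusted p under 0.05 (13.9% of all probe sets did). All 8 estimates were positive, that is higher in the LBD37 overexpresser. AT4G27654 differed by 0.84 (95% interval 0.23 to 1.45, limma adjusted p = 0.282), AT4G27280 by 0.79 (0.31 to 1.26, adjusted p = 0.271) and AT3G10930 by 0.61 (0.08 to 1.15, adjusted p = 0.321). AT5G52750 differed by 0.29 (0.04 to 0.53, adjusted p = 0.316), and it was the only member whose arrays did not overlap between the overexpressers (7.10% of all probe sets lay above in this way). Without replicate 3 of the LBD37 overexpresser, 6 of 8 members did not overlap, all higher in that line (12.1% of all probe sets). The remaining intervals were -0.06 to 1.06 for STZ, -0.33 to 0.40 for CML41, -0.36 to 0.85 for AT4G27652 and -0.70 to 0.78 for AT4G27657.

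With arrays weighted by their quality, which gave replicate 3 of the LBD37 overexpresser a weight of 0.17, AT4G27280 passed between the overexpressers (1.18, adjusted p = 0.0228). Without that array the estimates were 1.21 for AT4G27654, 1.06 for AT4G27280, 0.82 for AT3G10930, 0.79 for STZ, 0.65 for AT4G27652, 0.49 for AT4G27657, 0.33 for AT5G52750 and 0.04 for CML41, and no member passed.

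Between the mutants, 0 of 8 members passed in limma after adjustment (2.60% of all probe sets did) and 0 had an unadjusted p under 0.05 (12.7% did). The arrays overlapped for all 8, while 24.3% of all probe sets had none overlapping. The largest estimate was 0.53 for AT3G10930 (95% interval -0.01 to 1.07, limma adjusted p = 0.406), which was 0.18 without replicate 2 of lbd37. Intervals of the others reached from -1.02 for AT4G27657 to 0.88 for AT4G27652. A 2-fold difference between lbd37 and lbd38 lies within the intervals of AT3G10930 and AT4G27657. The narrowest, for AT5G52750, ran from -0.27 to 0.22.

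Replicates of a group spread widely for these genes. The pooled within-group SD was between 0.33 and 0.52 for 6 members, above that of at least 98.8% of probe sets, and 0.24 for CML41 (95.6%) and 0.15 for AT5G52750 (71.5%), beside a median of 0.12 over all probe sets. On some arrays the deviations of most members ran together. LBD37 overexpresser replicate 3 had the lowest signal of its group for 8 of 8 members, on average 0.51 below the group mean. That array also had the lowest median (6.87) and the narrowest interquartile range (2.89) over all probe sets. LBD38 overexpresser replicate 3 was lowest for 7 of 8, on average 0.41 below. Replicate 2 of lbd37 was highest for 6 of 8, on average 0.33 above, but lowest for CML41 and AT5G52750. Replicate 2 of depleted wild type was lowest for 6 of 8, on average 0.13 below. CML41 and AT5G52750, which were below wild type in the overexpressers, were also lowest in replicate 3 of the LBD37 overexpresser. For CML41 this was by little (9.55, group mean 9.57). The shares of all probe sets lowest or highest on these arrays are not given here, so these deviations are not shown to be particular to the members.

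**Figure D3:**
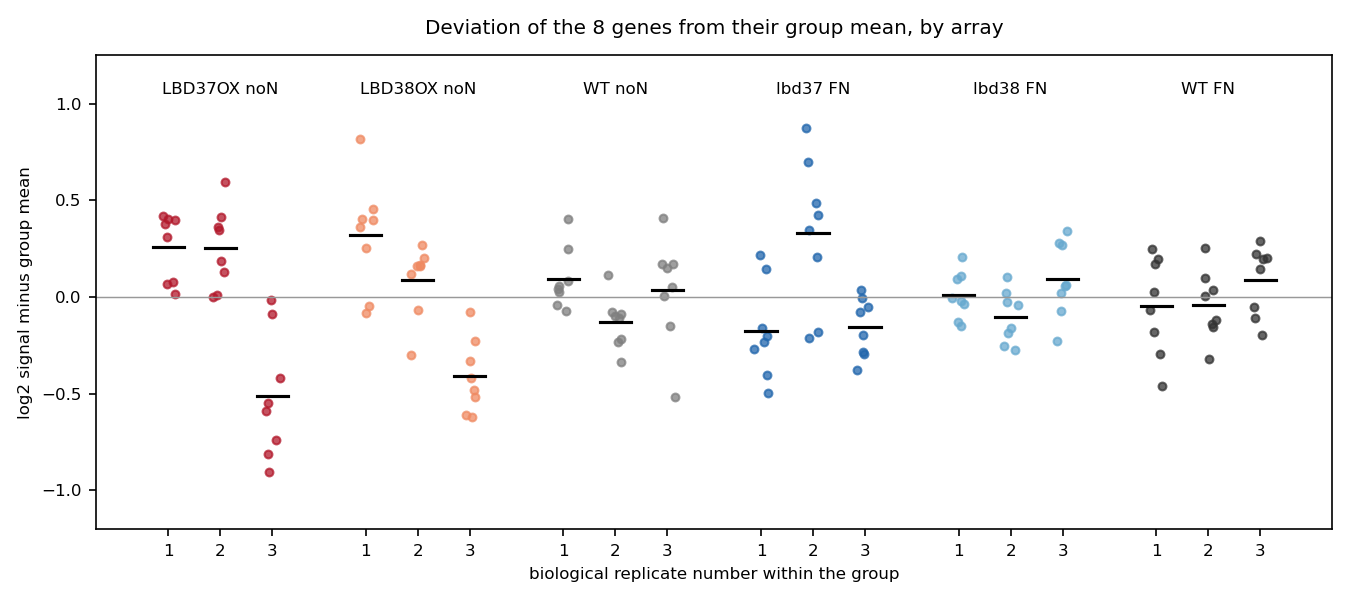
Log2 signal of each of the 8 genes minus its group mean (vertical axis) on every array, by replicate number within the 6 groups (horizontal axis). Points are genes and black lines their mean, which is -0.51 for replicate 3 of the LBD37 overexpresser and 0.33 for replicate 2 of lbd37.

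Measured genes near the members on their chromosomes were set beside them, starting with the runs on chromosomes 4 and 5. At the edges of the chromosome 4 run, AT4G27650, PEL1 in the annotation used, differed by -0.05 and 0.12 in the LBD37 and LBD38 overexpressers (limma adjusted p = 0.76 and 0.471). AT4G27660 differed by 0.19 and 0.12 (adjusted p = 0.249 and 0.587). Neither passed under depletion (0.14, adjusted p = 0.229, for AT4G27650 and -0.21, adjusted p = 0.131, for AT4G27660). Farther out, AT4G27640 fell by 0.32 under depletion (adjusted p = 0.0109). AT4G27680 fell by 0.37 in the LBD37 overexpresser (adjusted p = 0.0203) and rose by 0.27 under depletion (adjusted p = 0.0413).

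AT5G52750 lies between AT5G52740 and AT5G52760, and both rose with it under depletion. AT5G52740 was 11.04-fold higher in depleted than in replete wild type (3.47 ± 0.18 SE, limma adjusted p = 5.23e-11). It read 7.61, 7.59 and 8.23 in the LBD37 overexpresser and 7.48, 8.07 and 7.82 in the LBD38 overexpresser, against 9.15, 8.98 and 8.60 in depleted wild type. It fell in both, by 1.10 in the LBD37 overexpresser (limma adjusted p = 0.00028) and by 1.12 in the LBD38 overexpresser (adjusted p = 0.000213). In the mutants it did not pass, with 0.19 in lbd37 (adjusted p = 0.881) and -0.10 in lbd38 (adjusted p = 0.897).

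AT5G52760 was 9.35-fold higher under depletion (3.22 ± 0.26 SE, limma adjusted p = 1.03e-08). It fell by 0.86 in the LBD38 overexpresser (adjusted p = 0.0279) and differed by -0.49 in the LBD37 overexpresser (adjusted p = 0.206). In the mutants it rose by 1.31 in lbd38 (adjusted p = 0.0156) and differed by 1.24 in lbd37 (adjusted p = 0.0715). Leaving out replicate 1 or 3 of lbd38 or replicate 1 of replete wild type ended the call in lbd38 (adjusted p up to 0.108). The call in the LBD38 overexpresser ended without replicate 1 or 3 of that line or replicate 1 or 3 of depleted wild type (adjusted p up to 0.162). Next along, AT5G52770 stayed between 3.89 and 4.16 on all depleted arrays and did not pass in any comparison. AT5G52720 rose by 0.80 under depletion (adjusted p = 1.51e-05) and fell by 0.56 and 0.49 in the LBD37 and LBD38 overexpressers (adjusted p = 0.00269 and 0.00664). AT5G52780 fell by 1.26 under depletion (adjusted p = 2.41e-06) and by 0.54 in the LBD37 overexpresser (adjusted p = 0.0241). Whether probe sets of these neighbours can bind each other's transcripts was not analysed here.

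**Figure D4:**
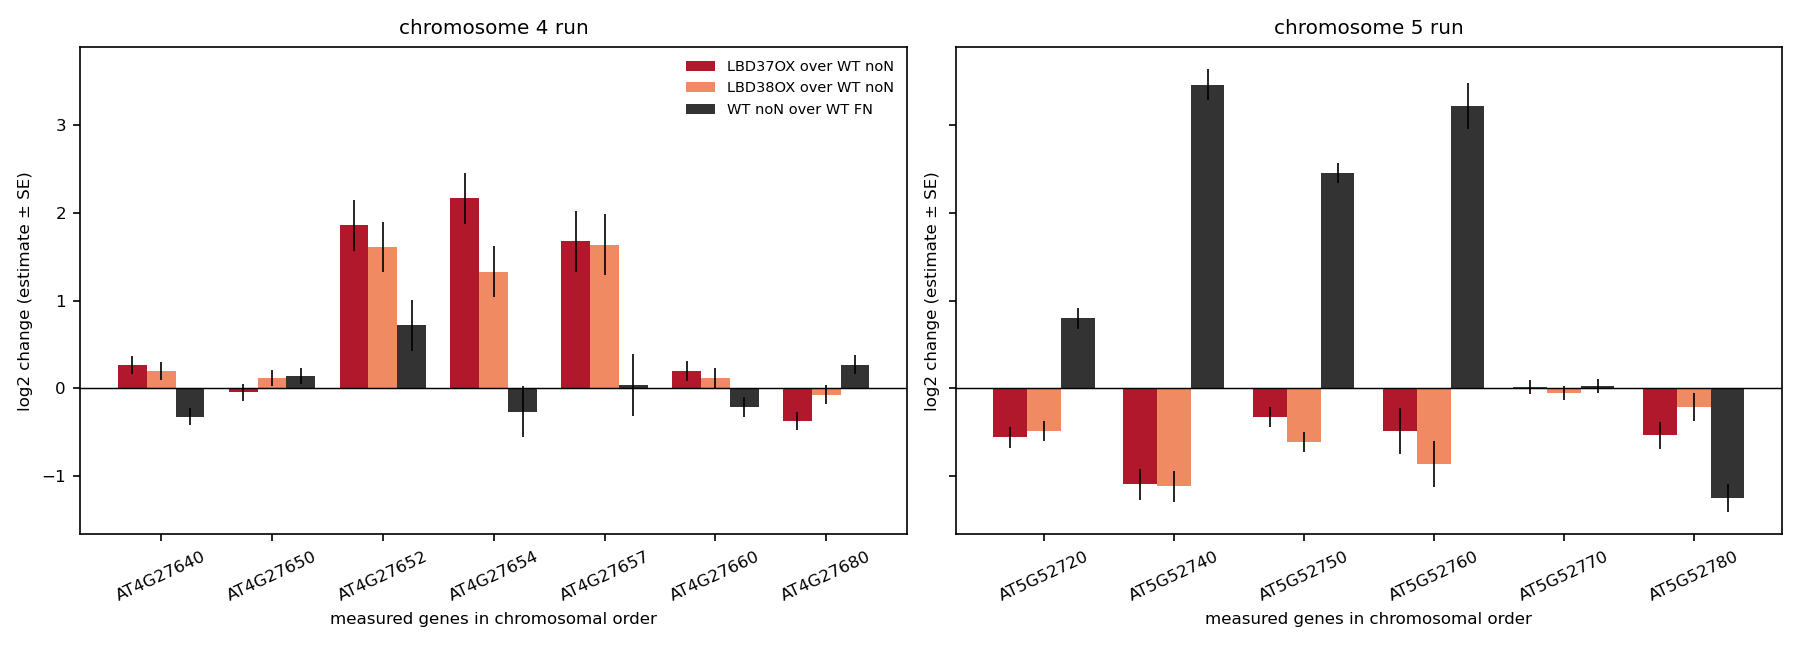
Log2 change (vertical axis, bars with SE) of measured genes in chromosomal order (horizontal axis) around the chromosome 4 run, left, and around AT5G52750, right, in 3 comparisons. On the left the overexpresser bars stand out for 3 adjacent genes, and on the right the depletion bars for AT5G52740, AT5G52750 and AT5G52760.

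Around AT4G27280, AT4G27300 rose by 0.78 and 0.87 in the LBD37 and LBD38 overexpressers (limma adjusted p = 0.00134 and 0.000461) and did not pass under depletion (0.30, adjusted p = 0.111). AT4G27260 rose by 1.35 under depletion (adjusted p = 8.96e-09) and AT4G27290 by 0.25 (adjusted p = 0.0217), and neither passed in an overexpresser. AT4G27250 and AT4G27270 did not pass in limma in any of the 7 comparisons. Near CML41, AT3G50780 rose by 0.24 and 0.22 in the LBD37 and LBD38 overexpressers (adjusted p = 0.0239 and 0.0434), where CML41 was lower, and AT3G50790 fell by 0.88 under depletion (adjusted p = 1.61e-06), where CML41 rose.

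Near AT3G10930, AT3G10960 rose by 0.36 under depletion (limma adjusted p = 0.00332) and AT3G10950 did not pass in any comparison. Near STZ, AT1G27700 fell by 0.36 under depletion (adjusted p = 0.00233). Of all measured neighbours, AT5G52760 in lbd38 gave the only call in a mutant.

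Other genes of the same responses were taken from 4 lists of zinc finger relatives of STZ, calcium sensors and decoders, early WRKY and ERF factors, and rapid defence, kinase and wound genes. Of 110 listed genes 20 had a probe set with exactly 1 listed gene. Under depletion 13 of the 20 rose and none fell in limma, where 23.5% of all probe sets rose and 26.6% fell. The median change was 0.54, beside -0.07 over all probe sets. The risers were 9 of 11 calcium genes, 2 of 3 WRKY genes, 2 of 4 defence genes and 0 of 2 zinc finger genes. All of these depletion values share the wild-type arrays with the members' own. The lists were also chosen with earlier results of these data known, so the counts are not independent of that choice.

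Of the calcium genes, AT3G01830 and AT3G47480 rose most under depletion, by 2.27 and 2.22 (limma adjusted p = 1.44e-07 for both). The calmodulin-like genes CML23 and CML37 rose by 1.83 (adjusted p = 4.7e-08) and 1.45 (adjusted p = 1.27e-06). The transcription factor genes WRKY53 and WRKY6 rose by 1.29 (adjusted p = 9.16e-05) and 0.71 (adjusted p = 1.66e-05). The E3 ligase gene PUB24 rose by 1.10 (adjusted p = 5.02e-08). AT5G05300 rose by 0.36 (adjusted p = 0.0204), a call that ended without replicate 3 of depleted wild type or replicate 2 or 3 of replete wild type (adjusted p up to 0.122).

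In the overexpressers these genes went both ways. In the LBD37 overexpresser 2 of 20 rose and 3 fell, where 7.21% of all probe sets rose and 11.3% fell. In the LBD38 overexpresser 2 rose and 5 fell, where 9.26% of all probe sets rose and 8.66% fell. The risers were the calmodulin-like genes CML38 and CML23 in both lines. CML38 read 8.10, 7.99 and 7.29 in the LBD37 overexpresser and 7.71, 7.43 and 6.41 in the LBD38 overexpresser, against 6.37, 5.90 and 6.41 in depleted wild type. It rose by 1.57 in the LBD37 overexpresser (limma adjusted p = 0.00141) and by 0.95 in the LBD38 overexpresser (adjusted p = 0.036). The second call ended without replicate 1 or 2 of the LBD38 overexpresser or replicate 1 or 2 of depleted wild type (adjusted p up to 0.208).

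CML23 read 8.91, 9.22 and 8.59 in the LBD37 overexpresser and 8.88, 8.91 and 8.22 in the LBD38 overexpresser, against 7.89, 7.58 and 7.70 in depleted wild type. Every overexpresser array was above wild type, and the rises were 1.18 (limma adjusted p = 7.78e-05) and 0.95 (adjusted p = 0.000556). The genes that fell in both overexpressers were AT3G47480, by 0.78 and 1.18, CML43, by 0.54 and 0.58, and PUB24, by 0.65 and 0.77, with the LBD37 overexpresser first. Their limma adjusted p-values were 0.0203 and 0.000936 for AT3G47480, 0.00132 and 0.000563 for CML43, and 0.000213 and 3.68e-05 for PUB24. AT3G47480 lost its call in the LBD37 overexpresser without replicate 1 of that line or replicate 2 or 3 of depleted wild type (adjusted p up to 0.0845). In the LBD38 overexpresser CML37 fell by 0.94 (adjusted p = 0.000825) and WRKY53 by 0.82 (adjusted p = 0.0148), the WRKY53 call ending without replicate 1 or 3 of the line or replicate 3 of depleted wild type (adjusted p up to 0.0999). CML37, CML43, AT3G47480, WRKY53 and PUB24 were also among the genes that rose under depletion, where the same depleted wild-type arrays enter with the opposite sign.

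In the mutants few of the 20 genes passed. In lbd37 0 passed in limma, where 0.189% of all probe sets did (0.136% as higher), and 8 had an unadjusted p under 0.05, where 7.42% did. In lbd38 7 of 20 had an unadjusted p under 0.05, for which the share of all probe sets is not given here. After adjustment 1 passed in limma, AT3G01830, where 1.19% of all probe sets did (0.589% as higher). It read 6.34, 5.60 and 6.66 in lbd38, against 4.86, 5.17 and 5.12 in replete wild type (1.15, adjusted p = 0.0148). It was not called without replicate 1 or 3 of lbd38 or replicate 1 of replete wild type (adjusted p up to 0.106). CML38 stood 1.34 higher in lbd37 without overlap but did not pass (limma adjusted p = 0.111), and CML23 0.78 higher (adjusted p = 0.0773). Between the overexpressers 0 of 20 passed in limma, where 0.0484% of all probe sets did, and 4 had an unadjusted p under 0.05, where 13.9% did. Between the mutants 1 of 20 passed, WRKY22, where 2.60% did, and 8 had an unadjusted p under 0.05, where 12.7% did.

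**Figure D5:**
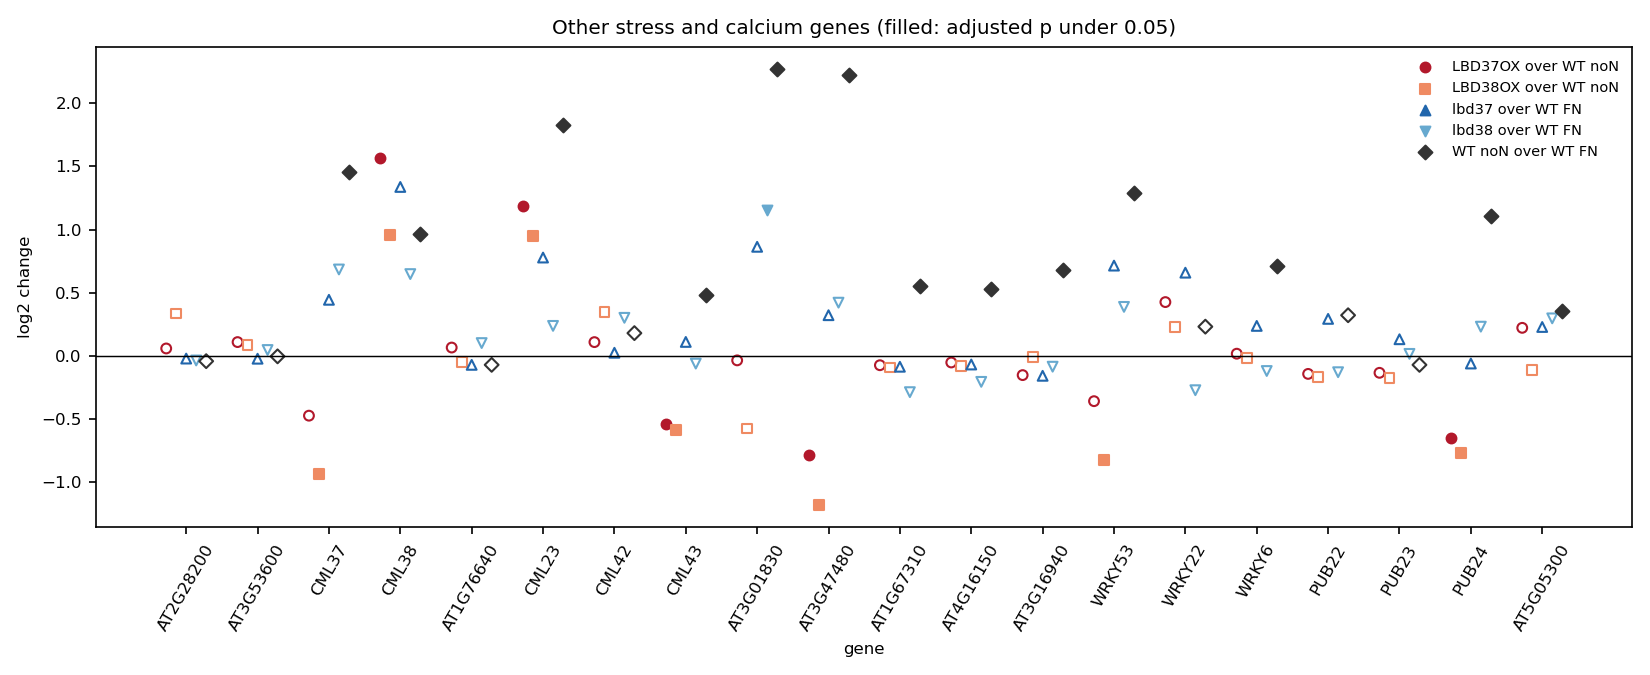
Log2 change (vertical axis) of 20 other stress and calcium genes (horizontal axis) in 5 comparisons, with filled symbols where the limma adjusted p was under 0.05. Depletion gave 13 filled symbols, all above 0, and the overexpressers gave filled symbols on both sides of 0.

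Markers of root and leaf moved beside these results. Under depletion 3 of 4 measured root markers rose and 1 fell, and 1 of 6 leaf markers rose and 5 fell, where 23.5% of all probe sets rose and 26.6% fell. Array means of the leaf markers were 8.35 to 8.60 in depleted wild type, against 9.03 to 9.09 in replete wild type. The root marker means were 9.04 to 9.59 in depleted wild type, against 9.01 to 9.13 in replete wild type. In the LBD37 overexpresser 2 root markers fell and 2 leaf markers rose, where 11.3% of all probe sets fell and 7.21% rose, with leaf means of 8.77 to 8.88 and root means of 8.79 to 9.09. In the LBD38 overexpresser 2 leaf markers rose, where 9.26% of all probe sets did, with leaf means of 8.82 to 8.94 and root means of 9.01 to 9.27. The stomatal regulator gene SPCH was highest among the leaf rises, at 1.35 and 1.46 in the LBD37 and LBD38 overexpressers (limma adjusted p = 1.61e-05 and 7.48e-06). In lbd37 and lbd38 no root or leaf marker passed in limma, where 0.189% and 1.19% of all probe sets passed. Leaf means lay at 9.03 to 9.18 in lbd37 and 8.87 to 9.00 in lbd38, and root means at 8.88 to 8.98 in lbd37 and 9.18 to 9.42 in lbd38. The marker lists were chosen with earlier results of these data known, so these counts and p-values are not independent of that choice. The part of these tissue markers in the members' values was not tested.

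Genes with the pattern most like the members were found by Pearson's r over the 18 arrays between each probe set listed with 1 gene and the mean of the members after centring. The arrays fall in 6 groups, so r mostly follows group means, and it is a description with no test. CML23 came first with r = 0.970, ahead of AT5G65300 (0.966), AT2G36220 (0.962), AT1G58420 (0.961) and AT4G36500 (0.960). B120, AT2G41640, AT4G24110, AT2G27500 and AT1G67340 followed, at 0.959 to 0.945. Members themselves ranged widely in this measure, which includes each of them. AT3G10930 had r = 0.968, STZ 0.965, AT4G27280 0.945 and AT4G27652 0.935, while AT5G52750, CML41, AT4G27654 and AT4G27657 lay between 0.843 and 0.787.

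AT1G58420 had the largest overexpresser differences of these 10 like genes, with mean signals of 7.97 in the LBD37 overexpresser and 7.76 in the LBD38 overexpresser, against 6.60 in depleted wild type. AT5G65300 had mean signals of 8.73 and 8.34 in the LBD37 and LBD38 overexpressers, against 8.16 in depleted wild type, and 7.07 and 7.08 in lbd37 and lbd38, against 6.64 in replete wild type. It stood 1.52 higher in depleted than in replete wild type.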

How the data were processed

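RNA of 18 whole-seedling samples was hybridised to Affymetrix ATH1 arrays. The values are log2 signals that the authors deposited, made by RMA per the submitters' processing notes, with no version given in the sources used here. The scans were not used here, which leaves the background correction as deposited. The labels disagree on culture, liquid in a sterile vessel or agar plates followed by wells. Of 22810 probe sets 64 controls were left out. Genes came from the platform's probe table and RefSeq's TAIR10.1 gene table. No 2 arrays held identical values, and 0 value columns were without a sample.

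Group means were fitted with limma 3.58.1 in R 4.3.3 (lmFit, eBayes) on all arrays, with 12 residual and 5.89 prior degrees of freedom. Tests were two-sided, with Benjamini-Hochberg adjustment within each of 7 comparisons over 22746 probe sets and a threshold of 0.05. The number of arrays limits the precision. The fit was tested on simulated data with noise drawn independently for each probe set and array. Deviations shared across an array were not simulated, so that test does not cover them.

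The members and lists were chosen with earlier results of these data known. All members are named. Of each list, up to 4 genes per comparison with the largest change past the threshold are named, as are measured chromosomal neighbours and the 10 genes most like the members by r. Other genes given beside these follow a gene named in another comparison. Alternatives were repeated quantile normalization, array weights, a replicate block, arrays centred on their medians, a fit without the dimmest 40% of probe sets, a fit of the compared groups alone, a trended and robust eBayes, and leaving out each array. Salicylate-linked PR genes were listed, but 0 of 3 had a probe set with exactly 1 listed gene.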

Additional observations from a re-analysis of the deposited data

Results flagged for a closer look

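WRKY22, an early WRKY transcription factor gene, differed between the mutants in a direct test. It read 6.81, 7.30 and 6.90 in lbd37 and 5.81, 6.20 and 6.21 in lbd38, against 6.47, 6.28 and 6.28 in replete wild type. The lbd37 arrays all lay above and the lbd38 arrays all below those of wild type. It was 0.93 higher in lbd37 than in lbd38 (SE 0.17, limma adjusted p = 0.00373, higher in 3 of 3 arrays), where 2.60% of all probe sets passed. Against replete wild type neither mutant passed in limma (0.66 in lbd37, adjusted p = 0.167, and -0.27 in lbd38, adjusted p = 0.578).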

How the results depend on the processing

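With 3 arrays a group, precision is limited, most of all for dim probe sets. With the dimmest 40% of probe sets left out, which drops AT4G27654 and AT4G27657, the members' median difference from wild type was 0.91, 0.21, 1.00 and 0.92 in the LBD37 overexpresser, the LBD38 overexpresser, lbd37 and lbd38. Leaving out each array in turn gave a median of 0.67 to 0.82 in lbd38. Among the other 20 stress genes, the number past the threshold in lbd37 was 1 with repeated quantile normalization, 1 with centred arrays, 3 with only the groups compared and 1 with the replicate block. In lbd38 it was 2 with centred arrays, 2 with only the groups compared and 0 to 2 without each array. Between the mutants it was 4 with only the groups compared and 4 with array weights. With array weights 1 member passed between the overexpressers. The shares of all probe sets called under these alternative settings are not given here. A change in these genes therefore cannot be told apart from a change in all probe sets. Same-numbered replicates deviated together little (45 pairs, r from -0.25 to 0.26, median 0.05, 15 over 0.1), so the numbers were not taken to pair samples, and the replicate block left 6 members called under depletion and 0 in either comparison of lines. Some estimates near 0 that did not pass changed sign without an array. Between the mutants they ranged from -0.15 to 0.24 for STZ, -0.091 to 0.187 for CML41, -0.102 to 0.0819 for AT4G27280, -0.11 to 0.22 for AT4G27654 and -0.0985 to 0.0633 for AT5G52750. Between the overexpressers they ranged from -0.0808 to 0.167 for CML41, -0.0556 to 0.655 for AT4G27652 and -0.26 to 0.49 for AT4G27657, and under depletion from -0.16 to 0.29 for AT4G27657. AT4G27280 between the mutants was also -0.016 with quantile normalization, -0.011 centred and -0.0093 with array weights, where AT5G52750 was 0.0045. Besides leaving out arrays, eBayes with trend and robust ended the calls of AT4G27652 under depletion (adjusted p = 0.075) and of AT5G52760 (adjusted p = 0.0527) and CML38 (adjusted p = 0.0661) in the LBD38 overexpresser. CML38 also lost that call with only the groups compared (adjusted p = 0.0565) and with array weights (adjusted p = 0.0804), and AT3G47480 lost its call in the LBD37 overexpresser with repeated quantile normalization (adjusted p = 0.0566). The causes were not tested. Of the other values for single genes, 597 tested ones kept their direction and call. Of the described ones, 1 moved by more than the replicate spread, CML41 in the LBD37 overexpresser (-0.70 with repeated quantile normalization). The other 407 moved by less, and 10 of these changed sign. Among them were CML41 in lbd37 (-0.0606 without replicate 1 of replete wild type) and lbd38 (down to -0.078). Also among them were AT4G27280 in the LBD38 overexpresser (down to -0.0759) and AT4G27654 in lbd37 (down to -0.144) and lbd38 (up to 0.0534). AT4G27657 in lbd37 was 0.37 on all arrays and -0.0709 without replicate 2 of lbd37.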
